A study of Mus musculus with 5 samples.

Results

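The C/EBP (CCAAT/enhancer-binding protein) family was followed by the levels of its RNAs in mouse colon. Its 6 members were taken by gene symbol, Cebpa, Cebpb, Cebpd, Cebpg, Cebpz and Ddit3, out of 55471 genes in the deposited tables. Cebpe, the granulocyte gene that makes up the family's 7 genes together with these 6, was added for its level only. All mice were male C57BL/6 animals, 11 weeks old, and all had been given TNBS (trinitrobenzene sulfonic acid), a hapten that inflames the colon. A piece of colon was frozen 3 days later, from mice that had received vehicle (2 libraries) or the herbicide propyzamide (3 libraries). The libraries were made by SMART-Seq2, a method that copies whole transcripts. The comparison made here is propyzamide against vehicle within TNBS colitis, and C/EBP signalling is among the questions the study is known for. Colon without TNBS was not analysed here, and the sources used here give no colon segment, no dose and no strand setting for the counting. In a piece of whole colon, fewer cells of a type and less RNA per cell cannot be told apart.

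C/EBP proteins bind DNA as pairs through a basic region and a leucine zipper, and most of them can pair with one another. C/EBPalpha, from Cebpa, drives the terminal differentiation of fat, liver and myeloid cells, whereas C/EBPbeta and C/EBPdelta, from Cebpb and Cebpd, are induced by cytokines and act on inflammatory and acute-phase genes. C/EBPgamma, from Cebpg, lacks a strong activation domain and pairs with ATF4, and CHOP, from Ddit3, is made under stress of the endoplasmic reticulum and pairs with C/EBPbeta in place of its usual partners. Cebpz carries the family's name but encodes a large protein of the nucleolus without a leucine zipper, needed to assemble ribosomes. C/EBPbeta is made in long activating and short inhibitory forms from 1 mRNA by choice of the start codon, which RNA counts cannot show.

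Promoter sequences are shown for the inflammatory member Cebpb and the stress member Ddit3, since these 2 differ most in measured level per length among the members with a RefSeq promoter. Each line gives the 250 bases before the RefSeq start on GRCm38.p6, 5′ to 3′ on the plus strand, with capitals on the matches described after them. Cebpb is at chr2:167688665-167688914 and Ddit3 at chr10:127290543-127290792.
Cebpb: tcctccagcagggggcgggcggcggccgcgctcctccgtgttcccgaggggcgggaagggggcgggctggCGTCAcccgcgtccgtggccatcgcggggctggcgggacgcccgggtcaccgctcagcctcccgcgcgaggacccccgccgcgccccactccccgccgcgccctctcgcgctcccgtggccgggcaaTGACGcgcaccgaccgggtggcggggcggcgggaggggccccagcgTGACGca
Ddit3: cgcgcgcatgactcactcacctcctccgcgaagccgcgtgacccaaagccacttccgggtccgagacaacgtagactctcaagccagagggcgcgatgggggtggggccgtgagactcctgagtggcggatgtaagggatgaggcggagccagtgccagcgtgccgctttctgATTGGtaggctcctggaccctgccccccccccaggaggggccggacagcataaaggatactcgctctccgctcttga
The Cebpb stretch holds 3 matches to TGACG, the core of the element bound by CREB and ATF proteins, at 180, 53 and 7 bases before the start, the first of them on the minus strand. That motif was found in 20.8% of 32851 mouse promoters of the same length. The Ddit3 stretch holds 1 match to CCAAT, on the minus strand 77 bases before the start, and CCAAT was found in 37.4% of promoters. The Cebpg promoter has 2 CCAAT matches, 89 and 28 bases before its start, and the Cebpa promoter has neither motif. All 4 were searched on both strands from 250 bases before to 50 after the start. The C/EBP-type motif TTNNGNAA, present in 40.7% of promoters, and the composite C/EBP-ATF motif TGATGNAA, present in 3.97%, had no match in these 4 windows. The Cebpb promoter was 81.6% G and C, at the 99.2 percentile of all promoters, and that of Ddit3 was 64.8%, against a median of 52.4%. A match is a run of letters and does not show that a factor binds there.

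The libraries held 1573700 to 2706885 estimated counts, of which 823540 to 1328793 lay outside mitochondrial and rRNA-like genes. One count was therefore worth 0.340 to 0.609 CPM (counts scaled to a common library total, with TMM factors), and the 6 members held 18 to 347 counts each over all libraries. Background was set from 1740 receptor genes of smell and pheromone sensing, by their counts per kilobase. It made up 10.4% and 7.91% of the counts outside those classes in vehicle and 0.517%, 5.24% and 1.94% in propyzamide. The groups carry different second index sequences, so index batch and treatment cannot be told apart. Of 12024 genes tested with edgeR's quasi-likelihood test, 1.90% had a Benjamini-Hochberg adjusted p under 0.05, 0.690% higher and 1.21% lower in propyzamide.

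Ddit3 and Cebpg were the most abundant family members per length, and Cebpb was the least abundant of the 6. Summed over transcripts, the authors' TPM (a level corrected for transcript length and library depth) averaged 17.2 ± 5.31 (SD over 5 libraries) for Ddit3 and 9.51 ± 3.11 for Cebpg. Cebpz followed at 5.59 ± 2.79, Cebpd at 3.96 ± 1.72, Cebpa at 3.63 ± 1.39 and Cebpb at 1.09 ± 1.04 TPM. Among protein-coding genes ranked by mean TPM these values placed Ddit3 at the 87.8 percentile, Cebpg at the 79.4, Cebpz at the 70.0, Cebpd at the 63.8, Cebpa at the 62.1 and Cebpb at the 42.8. Cebpe, which serves granulocytes, had 1 count in vehicle replicate 1 and 0 in the other 4 libraries.

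The order of neighbouring members was not the same in every library. Ddit3 was above Cebpg in 4 of 5 libraries, all but propyzamide replicate 1, Cebpg was above Cebpz in 4, and Cebpa was above Cebpb in 4. Cebpz was above Cebpd in 3 of 5, and Cebpd was above Cebpa in 2 of 5. The ranges of all neighbours overlapped, so the steps between Cebpz, Cebpd and Cebpa were not larger than the spread between libraries. Added up, the 7 genes reached 44.20 and 35.23 TPM with vehicle against 40.93, 42.01 and 43.23 TPM with propyzamide. Ddit3 made up 25.2% to 58.7% of that sum, Cebpg 15.3% to 31.2% and Cebpb 0% to 6.52%.

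**Figure D1:**
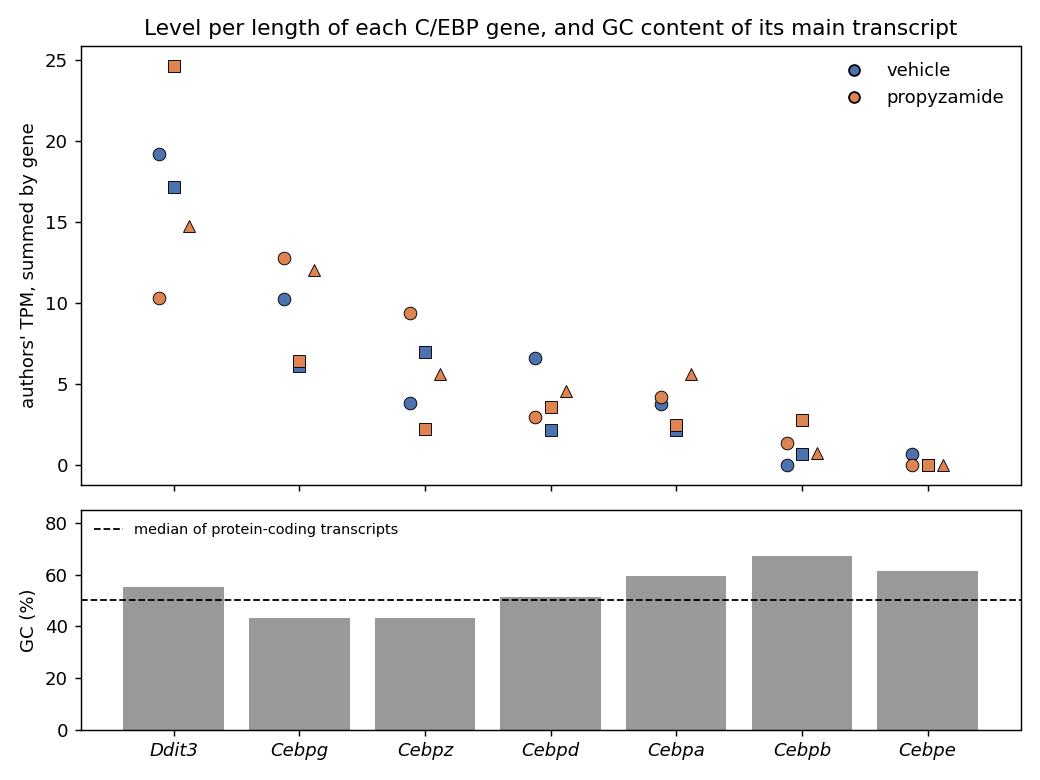
The upper panel plots the authors' TPM of each family gene in each library (circle, square and triangle for replicates 1, 2 and 3; blue for vehicle, orange for propyzamide). The lower panel gives the percentage of G and C in each gene's main transcript, with the protein-coding median of 50.4% as a dashed line; Ddit3 lies at 10.33 to 24.65 TPM and Cebpb at 0 to 2.74 TPM.

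The main transcripts differ in base composition. That of Cebpb was 67.2% G and C, at the 99.6 percentile of 58797 protein-coding transcripts, and those of Cebpa and Ddit3 were 59.5% and 55.4%. That of Cebpd was 51.6%, and those of Cebpz and Cebpg were 43.4% and 43.3%, at the 17.9 and 17.5 percentiles. The part of base composition in the order of levels was not tested.

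Between propyzamide and vehicle, none of the 5 members that could be tested passed the threshold, although all 5 edgeR estimates were positive, of which 3 turned negative with limma on the authors' TPM. By edgeR 0 of 5 were called, and 0 of 5 had an unadjusted p under 0.05, against 18.2% of all tested genes. DESeq2 also called 0 of 5, as did limma on log2(TPM + 1) and log2(TPM + 0.1), where these called 4.70%, 4.08% and 2.30% of all tested genes. The median log2 fold change of the 5 was 0.70, against -0.018 over all tested genes, of which 49.1% were positive. The CPM of the groups did not overlap for 3 of the 5, Cebpa, Cebpg and Cebpz, all higher in propyzamide, where 37.5% of all tested genes were separated (16.7% higher and 20.8% lower in propyzamide). On the TPM scale the groups overlapped for all 5. The remaining member, Cebpb, was too low for the filter, as was Cebpe.

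Cebpb, the member most closely tied to inflammatory signalling, had 0 and 2 counts in vehicle and 5, 9 and 2 in propyzamide. In CPM it stood at 0 and 1.13 in vehicle and at 1.70, 4.62 and 1.22 in propyzamide. All 3 propyzamide libraries lay above both vehicle libraries, but vehicle replicate 2 and propyzamide replicate 3 held the same 2 counts. A count of 0 in vehicle replicate 1 allows a level of up to 1.24 CPM, on a floor of 3 counts. Summed by group, 2 counts against 16 gave a ratio of 5.12 with an exact interval of 1.20 to 45.9. Intervals and floors here cover counting error only, not the spread between mice. Background at the level of the receptor genes would give 2.75 counts in vehicle and 1.24 in propyzamide, so the 2 vehicle counts do not exceed background. Without a filter edgeR gave a log2 fold change of 2.27 ± 1.40 (SE; 95% interval -0.47 to 5.0) with an adjusted p of 0.404.

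Cebpb is a single-exon gene on chromosome 2, from 167688915 to 167690418 on the plus strand of GRCm38. Of its 1504 exon bases, 312 (20.7%) are also exon of Tmem189, which is transcribed from the opposite strand and had 33 and 33 counts in vehicle and 111, 118 and 70 in propyzamide. If the counting did not use strand, reads from that stretch cannot be assigned to 1 of the 2 genes. The Tmem189 counts were higher in all 3 propyzamide libraries than in either vehicle library, and the part of the overlap in the Cebpb counts was not tested.

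Cebpa, the differentiation factor, stood at 4.55 and 5.67 CPM in vehicle and at 7.82, 6.16 and 14.6 CPM in propyzamide. Propyzamide replicate 3 was the highest, and the other two lay just above vehicle replicate 2. Its log2 fold change was 0.88 ± 0.66 (SE), with an edgeR adjusted p of 0.530. The 95% interval ran from -0.54 to 2.31, so that it holds a fall to 0.688-fold as well as a rise to 4.94-fold. On chromosome 7 Cebpa (35119293 to 35121928, plus strand) lies 62719 bases from Cebpg (35046422 to 35056573, minus strand), and all counts of Cebpa were assigned to 1 transcript of 2 exons, Cebpa-202.

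Because the balance of C/EBPbeta and C/EBPalpha is often read as a shift from differentiation to inflammation, the log2 ratio of their TPM was compared, with 0.1 added to each. The ratio stood at -5.27 and -1.59 with vehicle, against -1.55, 0.16 and -2.84 with propyzamide. The groups overlapped, since propyzamide replicate 3 lay below vehicle replicate 2. The difference of the means was 2.02, with a two-sided exact permutation p of 0.4, where 2 against 3 libraries cannot go below 0.2. It rests on vehicle replicate 1, the library without a Cebpb count, and was 0.18 without it and 3.86 without vehicle replicate 2.

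Cebpd, the member that STAT3 induces in response to interleukin-6, stood at 8.69 and 10.2 CPM in vehicle and at 9.43, 16.1 and 21.2 CPM in propyzamide. Propyzamide replicate 1 fell between the vehicle libraries, and the other two lay above them. Its log2 fold change was 0.70 ± 0.52 (SE; 95% interval -0.43 to 1.84), with an edgeR adjusted p of 0.530. On the TPM scale vehicle replicate 1 was instead the highest library, at 6.61 TPM against 2.16 in vehicle replicate 2 and 2.93, 3.57 and 4.55 in propyzamide. In that library 42.7% of the TPM was assigned to the non-coding transcript Cebpd-202, on 1 of the gene's 21 counts. In the other 4 libraries the coding transcript Cebpd-201 held 94.9% to 100% of the TPM.

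Cebpd spans chromosome 16 from 15887286 to 15891031 on the plus strand. Its exons share 562 of 3746 bases (15%) with Spidr on the opposite strand. Spidr had 8 and 6 counts in vehicle and 10.24, 15.6 and 7.1 in propyzamide, fewer than Cebpd in every library.

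Cebpg, the ATF4 partner, was the steadiest of the tested members: its highest CPM was 1.40 times its lowest, where the other 4 ranged from 2.45 to 3.25 times. It stood at 26.9 and 30.6 CPM in vehicle and at 37.7, 30.8 and 34.7 CPM in propyzamide. The groups did not overlap, by the narrow gap between vehicle replicate 2 and propyzamide replicate 2. Its log2 fold change was 0.26 ± 0.35 (SE), with an edgeR adjusted p of 0.762. The 95% interval of -0.51 to 1.03 was the narrowest in the family and ends near a fold of 2.04.

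The transcripts assigned to Cebpg varied more than its total. The coding transcript Cebpg-202 held 92.2% and 76.1% of the gene's TPM in vehicle and 54.6%, 76.3% and 30.1% in propyzamide. Another coding transcript, Cebpg-201, held 24.0% in propyzamide replicate 3, on 4.63 estimated counts, and 0% in the other libraries. Cebpg-203, which keeps an intron, held 7.82% and 23.9% against 45.4%, 23.7% and 45.9%. In estimated counts Cebpg-203 had 1.69 and 4.90 in vehicle and 23.06, 5.39 and 17.12 in propyzamide. The shares overlapped between the groups, at vehicle replicate 2 and propyzamide replicate 2, and no test was made on them.

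Ddit3, which encodes CHOP, stood at 8.27 and 16.5 CPM in vehicle and at 6.96, 22.6 and 14 CPM in propyzamide. The lowest and the highest library were both in propyzamide, replicates 1 and 2, so the groups overlapped fully. Its log2 fold change was 0.22 ± 0.58 (SE; 95% interval -1.04 to 1.49), with an edgeR adjusted p of 0.888. The direction turned to -0.28 without propyzamide replicate 2 and to -0.22 without vehicle replicate 1. Ddit3 spans chromosome 10 from 127290774 to 127296288 on the plus strand, and its coding transcript Ddit3-201 held 87.4% to 97.9% of its TPM. Background was smallest here, at most 5.03% of the gene's counts in any library. A short upstream reading frame listed under the same symbol had 0 counts in all libraries. Its 105 exon bases all lie within exons of the main Ddit3 gene, so the 0 does not show whether it is expressed.

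Cebpz, the nucleolar member, stood at 6.62 and 10.2 CPM in vehicle and at 11.9, 10.8 and 20.9 CPM in propyzamide. The groups did not overlap, with propyzamide replicate 3 well above the rest and propyzamide replicate 2 close to vehicle replicate 2. Its log2 fold change was 0.78 ± 0.54 (SE; 95% interval -0.39 to 1.95), with an edgeR adjusted p of 0.493. In TPM it stood at 3.78 and 6.99 with vehicle, against 9.39, 2.19 and 5.58 with propyzamide, and the groups overlapped. In vehicle replicate 2, 73.8% of that TPM came from the 530-base non-coding transcript Cebpz-202 on 4.27 estimated counts, and the coding transcript Cebpz-201 held 10.7% of it. Cebpz-201 held 45.8% in vehicle replicate 1 and 13.4%, 100% and 71.3% in propyzamide. Cebpz lies on chromosome 17 from 78919006 to 78937066 on the minus strand and shares 171 of 4658 exon bases (3.67%) with its neighbour Cebpzos on the opposite strand.

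**Figure D2:**
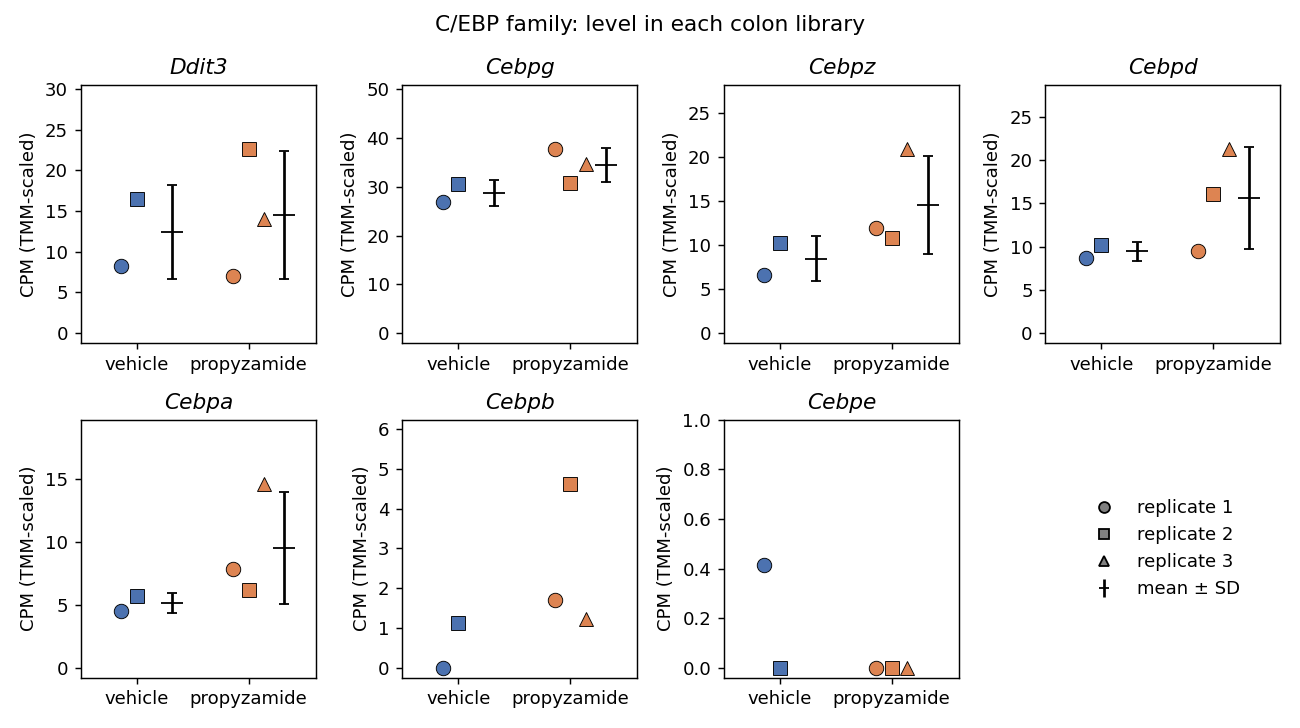
TMM-scaled CPM of each family gene in each library, with the mean ± SD of the group for the 5 tested genes; each panel has its own axis from 0. Propyzamide lies above vehicle without overlap for Cebpg, Cebpz, Cebpa and Cebpb, and overlaps vehicle for Ddit3 and Cebpd. Of all tested genes 37.5% were separated, 16.7% higher in propyzamide. For Cebpb, vehicle replicate 2 and propyzamide replicate 3 hold the same 2 counts.

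The estimates moved with the unit. With limma on log2(TPM + 1), Cebpd stood at -0.081, Cebpz at -0.038 and Ddit3 at -0.21. The median of all genes was -0.39 in that fit, and relative to it the 5 members stood between 0.19 and 0.73. Cebpa and Cebpg were positive in all their alternatives, at 0.34 to 1.10 and at 0.14 to 0.41. Among these 5 members the lowest unadjusted p in any alternative was 0.106, for Cebpd.

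**Figure D3:**
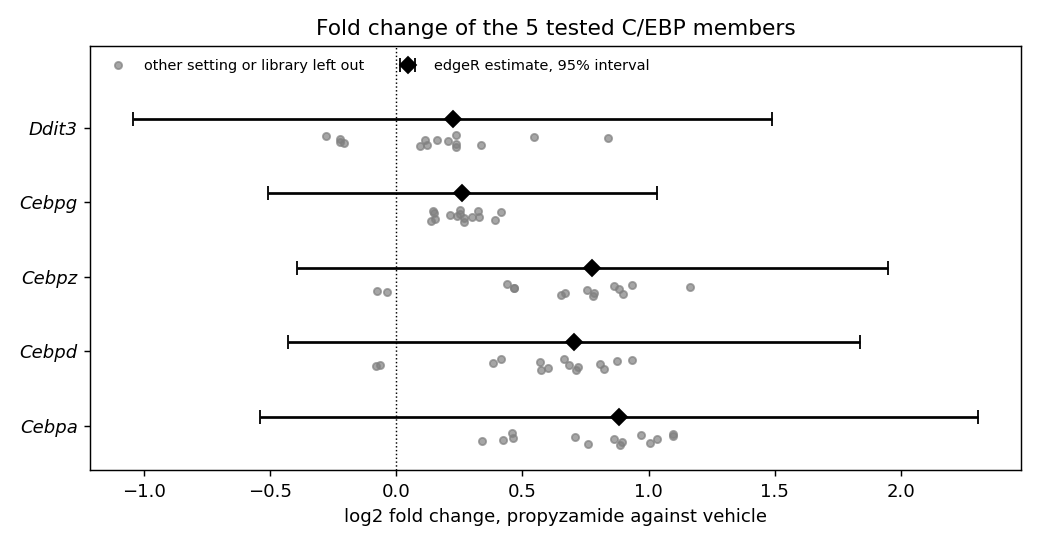
Log2 fold change (propyzamide against vehicle) of the 5 tested members, with the edgeR estimate and its 95% interval as a diamond and bar, and each other setting or left-out library as a grey point. Every interval includes 0, and grey points cross 0 for Ddit3, Cebpz and Cebpd.

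Background was unevenly spread over these counts. It would account for 22.1% and 15.3% of the Cebpa counts in vehicle, against 0.697%, 10.4% and 1.56% in propyzamide. For Cebpz the shares were 24.5% and 13.7% against 0.741%, 9.59% and 1.76%, and for Cebpd 19.9% and 14.6% against 0.994%, 6.84% and 1.84%. With background subtracted, Cebpa stood at 1.03, Cebpz at 0.88, Cebpd at 0.81, Cebpg at 0.21 and Ddit3 at 0.16, and edgeR called none of the 5.

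**Figure D4:**
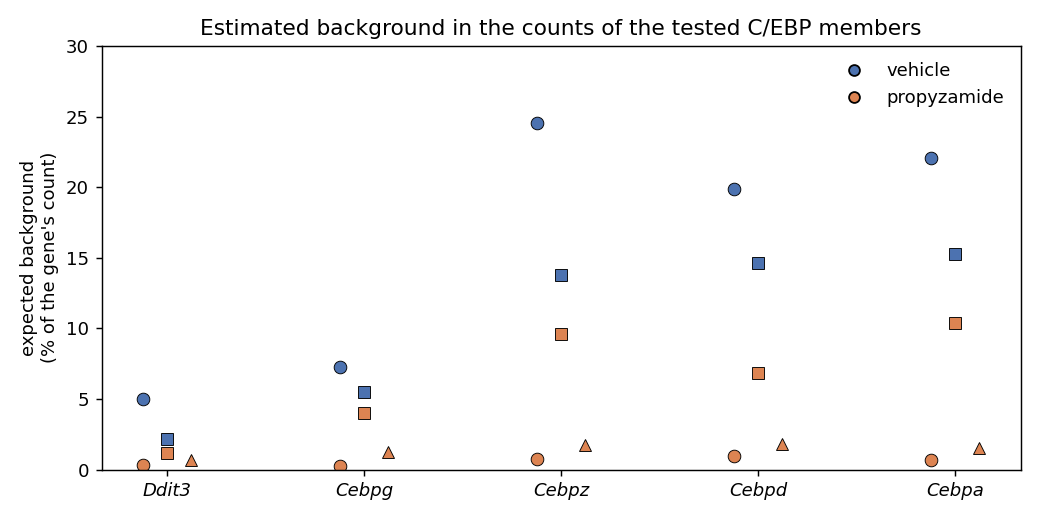
Share of each tested member's counts, in percent, that background at the receptor-gene level would give in each library (circle, square and triangle for replicates 1, 2 and 3). Both vehicle libraries lie above all propyzamide libraries for every gene, and the values reach 24.5% for Cebpz and 5.03% for Ddit3.

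Genes with the most similar profile were found among 5491 protein-coding genes by the smallest root mean square difference of centred log2 CPM over the 5 libraries. For Cebpa they were Rbfox2 (0.12), Mcrs1 (0.12) and Pex6 (0.13), for Cebpd Esco1 (0.087), Angptl2 (0.090) and Rheb (0.094), and for Cebpg Bace1 (0.047), Cdc42se1 (0.051) and Rab31 (0.056). For Cebpz they were Anxa6 (0.13), Fam214b (0.14) and Grb2 (0.14), and for Ddit3 Ank2 (0.13), Tle3 (0.14) and Tmem140 (0.16). With 5 points a profile, these are descriptions.

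Of the leucine-zipper genes whose products can pair with C/EBP proteins, 16 of 21 were tested, 12 positive and 4 negative with a median of 0.53. By edgeR 0 of 16 were called, 2 had an unadjusted p under 0.05 (against 18.2% of all tested genes), DESeq2 called 1 and limma 0. Fos, an immediate-early factor, stood at 39.7 and 16.5 CPM in vehicle and at 86.0, 94.4 and 65.1 CPM in propyzamide (log2 fold change 1.53 ± 0.43; edgeR adjusted p = 0.0785). Its groups did not overlap, and it passed in 3 of its alternatives, among them DESeq2 (adjusted p = 0.0308). Tef stood at -1.13 ± 0.45 (edgeR adjusted p = 0.209), Jund at 1.03 ± 0.51 (0.317) and Atf5 at 1.79 ± 0.89 (0.319).

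The integrated stress response, the pathway that raises ATF4 and Ddit3 when translation is restrained, gave 21 tested genes of 24, 10 positive and 11 negative, with a median of -0.018. By edgeR 0 were called, 1 had an unadjusted p under 0.05 (against 18.2% of all tested genes), and DESeq2 and limma called 0. Atf4, which activates Ddit3 and pairs with C/EBPgamma, stood at 33.9 and 71.5 CPM in vehicle and at 82.2, 55.4 and 117.5 CPM in propyzamide (log2 fold change 0.69 ± 0.43; edgeR adjusted p = 0.435). The groups overlapped, as they did for Ddit3. Gpt2, an alanine aminotransferase, stood at -1.74 ± 0.63 (edgeR adjusted p = 0.166) and Phgdh, a serine synthesis enzyme, at -1.03 ± 0.64 (0.427). Composite C/EBP-ATF motifs were found in at least 1 promoter of 7 of 21 genes of this list (33.3%), against 3.97% of all promoters. The first share counts genes and the other counts single promoters, so the 2 are not on the same scale. The list was chosen for this pathway, so its share is not a test.

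The 9 genes of the eIF2alpha kinases, their phosphatase and exchange factor, which lie upstream of Atf4, were all tested, 3 positive and 6 negative with a median of -0.53. By edgeR 0 were called, 1 had an unadjusted p under 0.05, where all tested genes had 18.2%, and DESeq2 and limma called 0. That gene was Eif2ak3, which encodes the endoplasmic reticulum kinase PERK: 13.9 and 15.9 CPM in vehicle and 7.14, 3.59 and 4.87 CPM in propyzamide (log2 fold change -1.49 ± 0.55; edgeR adjusted p = 0.176). Ppp1r15b, a phosphatase subunit, stood at 0.67 ± 0.34 (0.333), Eif2b1 at -0.72 ± 0.40 (0.367) and Eif2ak4, the amino acid sensor GCN2, at -1.07 ± 0.65 (0.416).

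Regulators of the C/EBP family, such as the kinases that phosphorylate C/EBPbeta and the proteins that steer its translation, gave 23 tested of 24, 11 positive and 12 negative with a median of -0.060. By edgeR 0 were called, 4 had an unadjusted p under 0.05, all positive (against 18.2% of all tested genes in either direction), and DESeq2 and limma called 0. Mapk3, which encodes the kinase ERK1, stood at 65.8 and 144 CPM in vehicle, against 205, 190.4 and 342 CPM in propyzamide (log2 fold change 1.23 ± 0.44; edgeR adjusted p = 0.164). Its groups did not overlap. Rps6ka3, which encodes the kinase RSK2, stood at 1.01 ± 0.40 (edgeR adjusted p = 0.198) and Celf1, an RNA-binding protein that acts on Cebpb translation, at 1.03 ± 0.35 (0.141).

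The inflammatory targets of C/EBPbeta and C/EBPdelta were mostly below the filter: 7 of 22 were tested, all positive with a median of 0.28, and edgeR, DESeq2 and limma called 0. None of the 7 had an unadjusted p under 0.05 by edgeR, against 18.2% of all tested genes. Arg1, an arginine-degrading enzyme, stood at 1.18 ± 0.98 (edgeR adjusted p = 0.578), Nfkbiz at 0.28 ± 0.38 (0.756), Zc3h12a at 0.60 ± 0.86 (0.776) and Ptgs2, the inducible cyclooxygenase, at 0.33 ± 1.04 (0.912). The cytokine genes Il6, Il1b and Tnf, named after their values were seen, had too few counts for the test. Il6 had 8 and 5 counts in vehicle and 0, 1 and 0 in propyzamide, Il1b had 3 and 1 against 3, 0 and 6, and Tnf had 3 and 2 against 0, 0 and 1.

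The acute-phase targets gave 9 tested of 14, 8 positive and 1 negative with a median of 1.08. By edgeR 3 had an unadjusted p under 0.05, all positive (against 18.2% of all tested genes in either direction). DESeq2 called 1, and limma called 1 on log2(TPM + 1) and 0 on log2(TPM + 0.1). EdgeR called 1 gene, which was higher, where 0.690% of all tested genes were called higher. That was Hp, which encodes haptoglobin, at 2.90 and 2.27 CPM in vehicle and 11.6, 46.2 and 89.5 CPM in propyzamide (log2 fold change 4.18 ± 0.82; edgeR adjusted p = 0.0283). The call was lost without vehicle replicate 1 (adjusted p = 0.293), vehicle replicate 2 (0.195) or propyzamide replicate 3 (0.0714), and with limma on log2(TPM + 0.1) (0.0538). Saa3, a serum amyloid, stood at 1.65 and 6.24 CPM against 4.09, 202 and 19.5 CPM (edgeR adjusted p = 0.116). Its groups overlapped, with propyzamide replicate 2 far above the others. C3 stood at 2.78 ± 0.96 (edgeR adjusted p = 0.152) and Lcn2 at 1.71 ± 0.93 (0.360). The C/EBP-type motif was found in at least 1 promoter of 9 of 10 genes of this list (90.0%), against 40.7% of all promoters. Here too the first share counts genes and the other counts single promoters, so they are not on the same scale. The list was chosen as targets of C/EBP proteins, so its share is not a test.

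The adipocyte and metabolic targets, which C/EBPalpha serves in fat cells and liver, gave 11 tested of 18, 9 positive and 2 negative with a median of 1.09. By edgeR 5 had an unadjusted p under 0.05, 4 of them positive (against 18.2% of all tested genes in either direction). DESeq2 called 2, and limma called 2 at each pseudocount. EdgeR called 2 genes, both higher, where 0.690% of all tested genes were called higher. These were Cidec, a lipid-droplet protein, at 1.65 and 0 CPM against 13.9, 20.5 and 18.9 CPM (edgeR adjusted p = 0.0277), and Cfd, the complement factor D of fat cells (adjusted p = 0.0417). Both calls were lost without vehicle replicate 1 (adjusted p = 0.0599 and 0.364), vehicle replicate 2 (0.141 and 0.145) or propyzamide replicate 3 (0.0714 and 0.0735). That for Cidec was lost as well without propyzamide replicate 2 (0.0505) and with limma on log2(TPM + 1) (0.0569) and log2(TPM + 0.1) (0.112), and that for Cfd with DESeq2 (0.0589) and with background subtracted (0.0540). Fabp4 stood at 2.85 ± 0.68 (edgeR adjusted p = 0.0508) and Pck1 at -1.09 ± 0.39 (0.164). All 8 markers of fat cells belong to this list, and their summed level was 31.8 and 23.3 CPM in vehicle and 87.0, 123 and 342 CPM in propyzamide. Adipoq, which defines fat cells, stood at 0.414 and 1.70 CPM against 1.02, 3.59 and 29.8 CPM. Plin1, a coat protein of lipid droplets, and Lep, the hormone leptin, were instead lower in every propyzamide library, on few counts. Plin1 stood at 2.48 and 2.84 CPM against 0.340, 0 and 1.22 CPM, and Lep at 2.48 and 1.70 CPM against 0 in all 3. The part of fat cells in these results, and in the Cebpa level that was also highest in propyzamide replicate 3, was not tested.

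Of 16 granulocyte targets of Cebpa and Cebpe, 1 was tested, Lyz2 (0.94 ± 0.60; edgeR adjusted p = 0.450), which macrophages also express. Mpo, Camp and Ngp had 0 counts in all 5 libraries, and Cebpe had a single count. Of the 16 ribosome-assembly partners of Cebpz, 15 were tested, 7 positive and 8 negative with a median of -0.050. By edgeR 0 were called, 0 had an unadjusted p under 0.05 (against 18.2% of all tested genes), and DESeq2 and limma called 0. Nop2 stood at -1.15 ± 0.76 (edgeR adjusted p = 0.469), Nop58 at 0.51 ± 0.40 (0.552), Fbl at 0.60 ± 0.52 (0.601) and Wdr12 at -0.44 ± 0.56 (0.742).

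**Figure D5:**
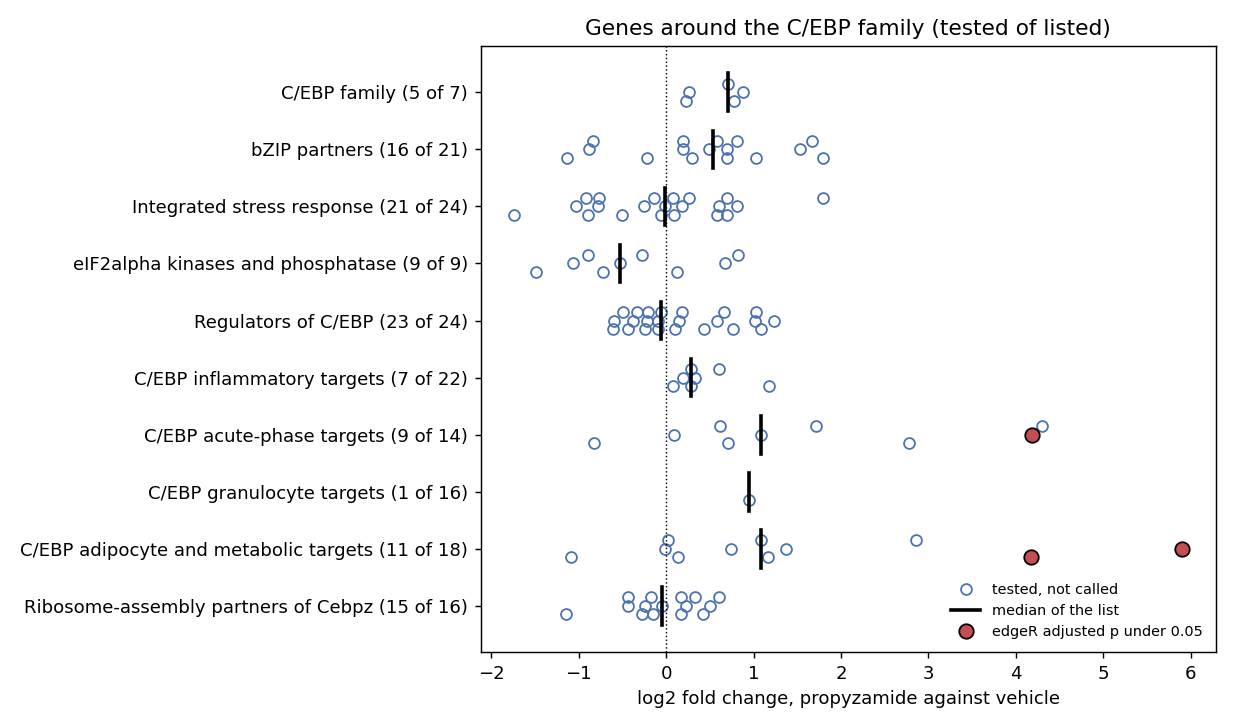
Log2 fold change (propyzamide against vehicle) of each tested gene of 10 lists, with the median of each list as a bar and genes with an edgeR adjusted p under 0.05 filled. The filled points are Hp, Cidec and Cfd, and the 5 family genes lie between 0.22 and 0.88.

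Markers of the cells that can hold C/EBP RNA moved between libraries. Summed macrophage markers were 129 and 106 CPM in vehicle and 62.0, 195 and 326 CPM in propyzamide, with 0 of 10 called by edgeR and DESeq2 and 1 by limma on log2(TPM + 1). That gene, Cx3cr1, a chemokine receptor, was lower (limma adjusted p = 0.0203), with 18 and 10 counts against 2, 0 and 0, whereas Lyz2 stood at 61.6 and 46.8 CPM against 25.5, 107 and 181 CPM. Neutrophil markers were 104 and 330.2 CPM against 96.5, 32.3 and 23.1 CPM, nearly all of it Ly6g, while Mpo and Ngp were at 0. Other markers of this list, named after their values were seen, had few counts. S100a8 had 0 and 6 counts against 2, 2 and 2, S100a9 had 0 and 10 against 2, 2 and 0, and Mmp8 had 1 and 6 against 0 in each. Vehicle replicate 1 held 247 counts of Ly6g without a count of S100a8 or S100a9, so the sum describes Ly6g and not the list. Ly6g, the 1 tested marker of that list, was not called by edgeR (adjusted p = 0.0835) and was called lower by DESeq2 (0.0186) and limma on log2(TPM + 1) (0.0272). Colon epithelium markers were 9687 and 7590 CPM against 16955, 14275 and 17062 CPM. Of the 14 tested, 10 were positive and 4 negative, with a median of 0.34. The negative ones were Epcam (-0.13), Krt18 (-0.028), Cdh1 (-0.33) and Muc2 (-0.077). Mean CPM differed most between the groups for Car1, at 869 and 969 against 2434, 2827 and 6098 CPM, and Guca2a, at 256 and 251 against 2863, 3843 and 2440 CPM. In vehicle Muc2 was a larger part of the sum than either, at 3333 and 1050 against 3603, 349 and 2283 CPM. EdgeR called 2 of 14 higher (against 0.690% of all tested genes), DESeq2 called 4 and limma 1. The edgeR calls were Guca2a, the guanylin precursor, lost without vehicle replicate 1 (adjusted p = 0.0559), and Cdx2, an intestinal homeobox factor. The call for Cdx2 was lost without vehicle replicate 1 (0.166), vehicle replicate 2 (0.183) or propyzamide replicate 2 (0.0539), and with limma at pseudocounts 1 (0.0514) and 0.1 (0.0931). Smooth-muscle markers were 549 and 3624 CPM against 6146.5, 9667 and 10358 CPM, so the vehicle libraries were themselves far apart. By edgeR 0 of 12 were called and 10 had an unadjusted p under 0.05 (against 18.2% of all tested genes). DESeq2 called 6, and limma called 5 on log2(TPM + 1) and 0 on log2(TPM + 0.1). Fibroblast markers were 566 and 520 CPM against 648, 1212 and 1666 CPM, with 0 of 12 called by edgeR, 4 at an unadjusted p under 0.05 (18.2% over all tested genes), 2 called by DESeq2 and 0 by limma. T and B cell markers were 47.1 and 24.4 CPM against 8.50, 19.5 and 5.48 CPM. Their part in the C/EBP levels was not tested.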

How the data were processed

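RNA of colon pieces was analysed in 5 libraries, 2 vehicle and 3 propyzamide. Per the file headers, the authors made an estimated count (expected_count) for every transcript in each library, the form in which RSEM shares reads out among transcripts. The deposited tables also hold its TPM, a value scaled for length and depth, per the file headers. RSEM, kallisto and GRCm38 are named without versions, per the submitters' processing notes. The strand setting is not given in the sources used here, so antisense and overlapping genes can share counts.

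Counts and TPM of 142647 transcripts were summed over 55471 genes, and counts were rounded. Symbols were found for 99.4% of gene identifiers, and coordinates, exons and GC content come from GENCODE M21 on GRCm38. Promoters come from RefSeq (GRCm38.p6), which matched 4 of the 7 family genes. Cebpd, Cebpe and Cebpz were not matched. All genes were tested in 1 model with edgeR 4.0.16 (R 4.3.3) after filterByExpr and TMM scaling, by the quasi-likelihood test with Benjamini-Hochberg adjustment and a threshold of 0.05. SEs follow from the quasi-likelihood F statistic. The steps were tested on simulated data. Alternatives were RLE and upper-quartile scaling, no filter, 10 CPM in 2 libraries, DESeq2 1.42.0, limma 3.58.1 on log2(TPM + 1) and log2(TPM + 0.1), removal of rRNA-like and mitochondrial genes, background subtraction, a replicate block and each library left out. The permutation test used scipy 1.17.1.

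Named genes were all members, up to 4 genes of smallest p in each list, and the 3 most similar profiles (mean log2 CPM of at least 4). One gene that this rule names is not reported here. The members and lists were chosen with earlier results of these data known. No pair of libraries was a duplicate (chi-square per degree of freedom 16.0 to 48.1, genes with at least 10 counts). Since no label says that each library is a separate mouse, the p-values describe only how far these libraries spread, which may be technical.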

Additional observations from a re-analysis of the deposited data

How the results depend on the processing

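No C/EBP member was called under any alternative. Alternatives moved the count over all genes from 229 (83 higher, 146 lower) to 1327 (450 and 877) without a filter, 565 (260 and 305) with DESeq2 and 148 (89 lower) at 10 CPM. It was 362 (258 lower) without rRNA-like and mitochondrial genes, 117 (59 lower) with background subtracted, and 490 (424 lower) with limma on log2(TPM + 1), while limma on log2(TPM + 0.1) gave 40 higher and 237 lower and upper-quartile scaling 235 lower. The share of calls that were lower went from 63.8% to 74.8% with upper-quartile scaling, 86.5% and 85.6% with limma, and 50.4% with background subtracted, where the median of all genes stood at -0.14 with upper-quartile scaling and at -0.39 and -0.47 with limma. Leaving out 1 library gave 36 to 499 calls, 14 to 214 higher and 20 to 285 lower, and without vehicle replicate 2 the balance turned to 35 higher and 20 lower (36.4% lower). The lone vehicle library of 2 such fits was assumed to vary like the other group.

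Limma at pseudocounts 1 and 0.1 put Cebpd at -0.081 and -0.064, Cebpz at -0.038 and -0.075, and Ddit3 at -0.21 and -0.22, and Ddit3 stood at -0.22 without vehicle replicate 1 and -0.28 without propyzamide replicate 2, within a range of -0.28 to 0.84 over the left-out libraries. Among other genes, Nfkbiz turned to -0.35 and -0.39 and Zc3h12a to -0.14 and -0.27 with limma, Pparg to -0.010 at pseudocount 0.1, and Ptgs2 ranged from -0.57 without vehicle replicate 1 to 2.46 without vehicle replicate 2. The log2 ratio of Cebpb to Cebpa differed by 1.87 with CPM, 2.07 with background subtracted and 0.18 to 3.86 with 1 library left out. It has no value without a pseudocount, since Cebpb is at 0 in vehicle replicate 1. The cause was not tested.

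With the replicate number as a block, 639 genes were called (324 higher, 315 lower, 49.3% lower), and the members stood at 0.46 (Cebpa), 0.38 (Cebpd), 0.25 (Cebpg), 0.47 (Cebpz) and 0.11 (Ddit3), none called. Only propyzamide has a replicate 3, so in this fit that library adds nothing to the treatment estimate, which rests on replicates 1 and 2 of each group. Changes under the block therefore cannot be told apart from the loss of that library. Under the block Arg1 stood at -0.12, Lyz2 at -0.024 and Zc3h12a at -0.13. Deviations of the libraries that share a number correlated at 0.15 and 0.14 for numbers 1 and 2. Deviations were taken from the group mean, so those of the 2 vehicle libraries mirror each other and those of propyzamide cancel out. The 2 correlations are therefore not independent and cannot decide whether the numbers pair libraries. The labels do not say whether libraries of the same number share an animal or a batch. Counts of 18 to 347 per member limit what can be detected.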
